A study of Homo sapiens with 12 samples.

Results

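MDA-231-LM2 cells labelled TMEM216 were compared with MDA-231-LM2 cells labelled Ctrl, both given IGF1. The comparison covers all 13071 features that reached 1 TPM in 3 or more libraries, and it rests on 6 of the 12 RNA-seq libraries of the series, taken by their labels. The groups were TMEM216+IGF1 and Ctrl+IGF1, with 3 libraries each. The other 6 libraries, 3 of TMEM216 cells and 3 of Ctrl cells without IGF1, entered the same fit and serve below as the background without IGF1. All 4 groups share the line, a derivative of the breast cancer line MDA-MB-231 of human origin, selected for metastasis to the lung. No label states how TMEM216 was altered, what the Ctrl cells received, whether either population was 1 clone, or how much IGF1 was given and for how long. Whether replicates were separate cultures is not labelled either, so the spread behind each p-value is that of these libraries and may be technical.

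The protein TMEM216 spans the membrane at the transition zone of cilia, the gate at the base of the primary cilium that controls which proteins enter it. IGF1 is a growth factor that binds the receptor IGF1R; its substrates IRS1 and IRS2 pass the signal to the PI3K and AKT branch and to the RAS and ERK branch. Activity of the ERK branch is known for rapid transcription of immediate early genes such as FOS and EGR1. ATF4 is a transcription factor whose translation rises when amino acids are short or the endoplasmic reticulum is stressed, and its known targets include enzymes of amino acid synthesis, amino acid transporters and regulators of the stress response.

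Levels are the authors' TPM, which scale each library to the same total, so the sequencing depth is unknown. Changes are log2 differences of TPM + 1, TMEM216+IGF1 minus Ctrl+IGF1, from a limma fit of the 12 libraries, with limma's standard error (SE) and a p-value adjusted by the Benjamini-Hochberg method over the 13071 features. Adding 1 understates the change of genes with few TPM. "Rose" and "fell" are used where the adjusted p was below 0.05. Since the fit shares 1 estimate of spread, each of the 12 libraries was left out in turn, and a call that any of these 12 refits lost is described so beside the gene.

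The TMEM216 transcript was the first check of the labels. It stood at 232, 221 and 224 TPM in the TMEM216+IGF1 libraries, against 24.6, 27.5 and 29.8 TPM in the Ctrl+IGF1 libraries. The groups were far apart, with an 8.27-fold ratio of means and a log2 change of 3.01 (SE 0.14, adjusted p = 3.63e-07, limma). The change without IGF1 was 2.94 (SE 0.14), and the difference of the 2 changes, 0.06 (SE 0.20), did not pass. The markers of the line were also looked up. VIM, vimentin, lay between 5755 and 6422 TPM in the 6 libraries with IGF1, and CD44, AXL, CAV1, MSN, ZEB1 and SPARC were all measured, while TWIST1 was listed at 0. Of the 8 luminal breast genes, KRT18 lay between 829 and 1012 TPM in the same libraries, EPCAM between 13.2 and 15.7, GATA3 between 5.81 and 7.77 and ERBB3 between 1.58 and 2.94 TPM. ESR1, FOXA1 and CDH1 did not exceed 0.135, 0.573 and 0.0468 TPM, and PGR was listed at 0. The luminal sum was 852 to 964 TPM in TMEM216+IGF1 and 975 to 1035 TPM in Ctrl+IGF1, and none of the 8 passed. Sums of the endothelial markers (3.803 to 4.45 TPM in TMEM216+IGF1 and 2.18 to 2.80 TPM in Ctrl+IGF1), of the fibroblast and pericyte markers (10.1 to 12.5 TPM in TMEM216+IGF1 and 7.11 to 9.54 TPM in Ctrl+IGF1) and of the adipocyte markers (0.460 to 0.855 TPM in TMEM216+IGF1 and 0.885 to 1.11 TPM in Ctrl+IGF1) did not overlap between the groups either. Of these markers only PECAM1, an endothelial gene, passed, with means of 1.83 TPM in TMEM216+IGF1 and 0.766 TPM in Ctrl+IGF1 (log2 0.68, SE 0.14). PECAM1 kept its call only without TMEM216 replicate 1 or 3 or Ctrl+IGF1 replicate 2 (log2 0.60 at the least). The part of these markers in the results was not tested. The summed level of the 11 immune markers was 184 to 206 TPM in TMEM216+IGF1 and 170 to 215 TPM in Ctrl+IGF1. CD68, a lysosomal protein, made up nearly all of that sum. PTPRC did not exceed 0.0232 TPM, and CD3E, MS4A1, FCGR3A and TPSAB1 were listed at 0.

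One library stood apart. In Ctrl+IGF1 replicate 3, 82 ribosomal protein genes took 15.6% of all TPM, against 11.6% to 13.7% in the other 11 libraries. It had the lowest score on the first principal component, -31.0, with the next lowest at -19.4 in TMEM216 replicate 1. Its values for genes with long transcripts were low. When the features were split into 5 equal groups by transcript length, its median deviation from the feature mean was -0.327 in the longest group and 0.0684 in the shortest. The median log2 change of the comparison was 0.150 in the longest group, -0.0530 in the shortest and 0.048 over all features. That last value was 0.0068 after quantile normalization and -0.0056 without this library. Ctrl+IGF1 replicate 3 was the lowest of its group in 88 of the 120 features that rose (73.3%), and in 64.8% of all features. Its part in the results was measured by leaving it out and by a correction for transcript length that was chosen after seeing the data.

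**Figure D1:**
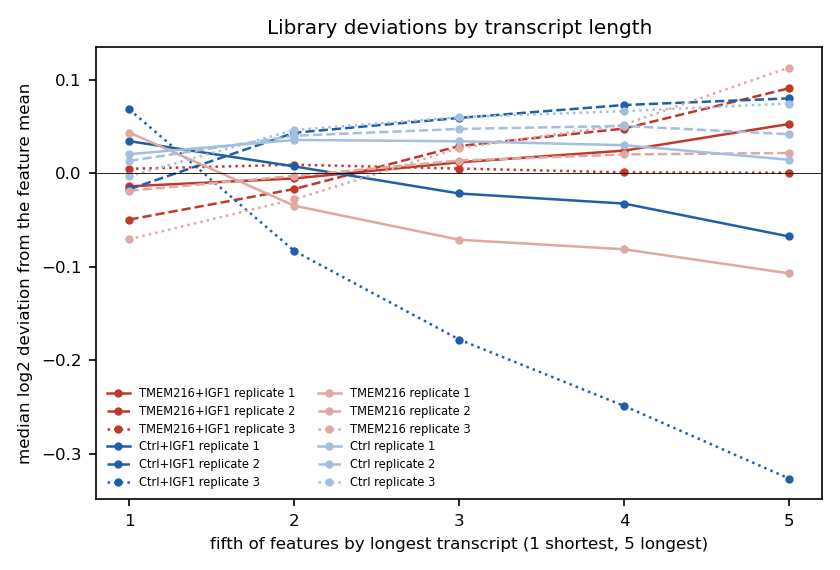
Median log2 deviation of each library from the feature mean (vertical axis) in 5 equal groups of features ordered by transcript length (horizontal axis, shortest to longest); each line is 1 library. The TMEM216+IGF1 libraries stay between -0.0494 and 0.0911, while Ctrl+IGF1 replicate 3 lies at 0.0684 in the shortest group and -0.327 in the longest.

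Of 13071 features, 120 rose in TMEM216+IGF1 (0.918%) and 91 fell (0.696%), 1.61% in either direction. In all 211, the 3 TMEM216+IGF1 libraries lay wholly above or wholly below the 3 Ctrl+IGF1 libraries. Such separation was common over the whole table, with 12.0% of features wholly above and 7.69% wholly below. In bulk RNA, fewer cells with a transcript and less of it per cell cannot be told apart. The rises were small, with a median log2 change of 0.541, and only 7 exceeded 1. The falls had a median of -0.619, and 20 went below -1. Leaving out libraries one at a time kept 39 of the 120 rises and 32 of the 91 falls in all 12 refits. Without Ctrl+IGF1 replicate 3, 74 features rose and 68 fell. These included 68 of the 120 rises and 56 of the 91 falls of the full fit. The 211 calls became 84, 88 and 117 without TMEM216+IGF1 replicates 1, 2 and 3, 91 and 462 without Ctrl+IGF1 replicates 1 and 2, and 139 without Ctrl replicate 3. Of the passing genes, 34 overlap another tested gene, 7 of them on the same strand. Among those named below, JUNB, DDIT3, SLC1A5, SLC6A9, COL18A1, ADAM19, KRT8, GINS2 and PLLP do so on the opposite strand.

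**Figure D2:**
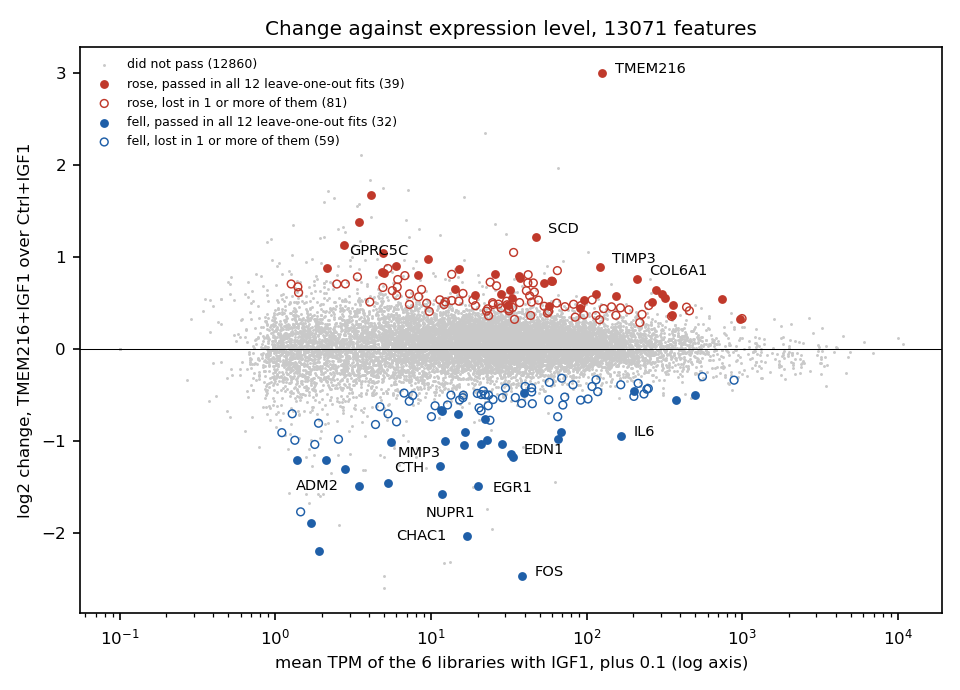
Log2 change, TMEM216+IGF1 over Ctrl+IGF1 (vertical axis), against mean TPM of the 6 libraries (horizontal log axis); each dot is 1 feature, red where it rose, blue where it fell, filled where the call held in all 12 leave-one-out refits. TMEM216 at 3.01 stands above the rest of the rises, and FOS at -2.47 and CHAC1 at -2.03 stand at the lower edge.

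Immediate early transcription factors, which growth factors switch on within minutes, were the group with the largest single fall. Of 25 tested members, 5 fell (FOS, EGR1, FOSB, ATF3 and JUNB) and none rose. Over all features 0.696% fell and 0.918% rose, and the same shares apply to each list below. The lists were chosen with earlier results of these data known. The median log2 change of the immediate early factors was -0.178, against 0.048 over all features. FOS, a subunit of the AP-1 transcription factor, stood at 11.3, 10.0 and 11.7 TPM in TMEM216+IGF1, against 69.2, 66.8 and 60.5 TPM in Ctrl+IGF1. Every TMEM216+IGF1 library was thus far below every Ctrl+IGF1 library, and the log2 change was -2.47 (SE 0.11, adjusted p = 3.63e-07, limma). In neither population was FOS higher with IGF1 than without it, as its values without IGF1, given below, show. EGR1, a zinc finger factor, stood at 11.4, 8.77 and 9.76 TPM in TMEM216+IGF1, against 28.1, 32.1 and 29.1 TPM in Ctrl+IGF1. Its log2 change was -1.49 (SE 0.13, adjusted p = 8.31e-05). FOSB, a relative of FOS, was low throughout, at 0.790, 1.02 and 0.603 TPM in TMEM216+IGF1, against 2.58, 4.14 and 2.88 TPM in Ctrl+IGF1 (log2 -1.21, SE 0.16). FOSB overlaps ERCC1 on the opposite strand, and reads of the pair cannot be told apart if the libraries kept no strand.

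The other 2 falls among these factors were less stable. ATF3, a stress-induced factor, averaged 4.07 ± 0.666 TPM in TMEM216+IGF1 and 7.76 ± 0.961 TPM in Ctrl+IGF1 (SD, n = 3 here and for each mean below; log2 -0.79, SE 0.15). Its call was lost without TMEM216+IGF1 replicate 1 or 2 or Ctrl+IGF1 replicate 1 (log2 -0.69 where nearest 0). JUNB, an AP-1 subunit, averaged 23.3 ± 0.660 TPM in TMEM216+IGF1 and 34.1 ± 2.29 TPM in Ctrl+IGF1 (log2 -0.53, SE 0.10). It lost its call without any 1 TMEM216+IGF1 library or without Ctrl+IGF1 replicate 1 or 3 (log2 -0.48 where nearest 0). Among other AP-1 members, JUN had a log2 change of 0.05, FOSL1 0.12 and FOSL2 0.12, and none of these passed.

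Genes that restrain the ERK branch moved both ways. DUSP1, a phosphatase of MAP kinases, stood at 48, 48.7 and 44.9 TPM in TMEM216+IGF1, against 84.4, 101 and 82.2 TPM in Ctrl+IGF1, and fell (log2 -0.90, SE 0.10, adjusted p = 0.00063). SPRY1, a sprouty inhibitor of receptor signalling, stood at 68.9, 66.2 and 64.2 TPM in TMEM216+IGF1, against 37.2, 45.2 and 37.8 TPM in Ctrl+IGF1, and rose (log2 0.72, SE 0.11, adjusted p = 0.00566). They were the only 2 to pass of 17 members of this list, whose median was 0.037 (-0.018 after quantile normalization and -0.019 after median-of-ratios scaling). DUSP6, SPRY2, ETV4 and ETV5, transcripts known to follow ERK activity, had log2 changes of -0.04, 0.06, -0.03 and -0.02 and did not pass.

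Promoter stretches of 5 genes that fell are shown with the response elements searched for: FOS and EGR1 of the immediate early factors, DUSP1, and CHAC1 and ASNS, known targets of ATF4. They are not the 5 largest falls. All but that of FOS were chosen because they hold a match, so they do not stand for the falls in general. The windows are from RefSeq on GRCh38.p14 and lie within 250 bases before a start. Capitals mark a match on either strand to a CArG box in EGR1 (CC, then 6 bases of A or T, then GG, the site of serum response factor), to the cyclic AMP response element TGACGTCA in DUSP1, and to the C/EBP-ATF response element TGATGNAA in CHAC1 and ASNS. The FOS window, at chr14:75278578-75278827 on the plus strand, held no match to these elements or to the AP-1 site TGANTCA. The EGR1 stretch lies at chr5:138465339-138465438 (plus strand), the DUSP1 stretch at chr5:172771276-172771355 (minus strand), the CHAC1 stretch at chr15:40953221-40953300 (plus strand) and the ASNS stretch at chr7:97872439-97872518 (minus strand).
FOS: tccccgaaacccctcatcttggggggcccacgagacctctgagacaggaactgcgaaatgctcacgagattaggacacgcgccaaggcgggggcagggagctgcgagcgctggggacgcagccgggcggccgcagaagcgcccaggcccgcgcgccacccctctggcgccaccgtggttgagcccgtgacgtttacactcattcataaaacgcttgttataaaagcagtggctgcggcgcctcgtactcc
EGR1: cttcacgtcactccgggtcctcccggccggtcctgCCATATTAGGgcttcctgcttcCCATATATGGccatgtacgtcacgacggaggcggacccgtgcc
DUSP1: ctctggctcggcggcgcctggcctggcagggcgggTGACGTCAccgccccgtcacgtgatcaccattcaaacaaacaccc
CHAC1: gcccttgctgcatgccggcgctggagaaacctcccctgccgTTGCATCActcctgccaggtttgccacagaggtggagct
ASNS: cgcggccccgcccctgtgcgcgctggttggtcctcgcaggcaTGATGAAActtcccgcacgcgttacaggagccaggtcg

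Over 35116 RefSeq promoter windows of that length, a CArG box was found in 1.16%. Its share was 1.11% in windows of tested genes, 2.17% in those of genes that fell and 0.855% in those of genes that rose. The cyclic AMP response element was found in 1.65% of all windows, in 2.49% of windows of tested genes, in 4.35% for genes that fell and in 0.855% for genes that rose. The C/EBP-ATF element was found in 3.14% of all windows, in 1.66% of windows of tested genes, in 8 of 92 windows of genes that fell (8.70%) and in 2 of 117 windows of genes that rose (1.71%). The AP-1 site was found in 6.57% of all windows, in 4.43% of windows of tested genes, in 9.78% of windows of genes that fell and in 5.98% of windows of genes that rose. The antioxidant response element TGACNNNGC was found in 10.9% of all windows, 11.5% of those of tested genes, 9.78% for genes that fell and 8.55% for genes that rose. For the sterol regulatory element TCACNCCA these shares were 3.201%, 2.81%, 4.35% and 4.27%. The shares for genes that rose or fell rest on 1 to 10 windows with a match each. The AP-1 site can share bases with the antioxidant response element, and the cyclic AMP element with the sterol regulatory element. These shares describe letters in a window and say nothing of binding. Windows were found for 68 of the 91 features that fell and 83 of the 120 that rose.

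In amino acid metabolism, every gene that passed among the synthesis enzymes was lower in TMEM216+IGF1. Of 17 tested amino acid synthesis enzymes, 7 fell and none rose, with a median log2 change of -0.319. Among all features, 0.696% fell and 0.918% rose. ASNS, asparagine synthetase, stood at 45.8, 41.4 and 44.0 TPM in TMEM216+IGF1, against 87.1, 93.0 and 81.1 TPM in Ctrl+IGF1 (log2 -0.98, SE 0.07, adjusted p = 3.53e-05). CTH, which makes cysteine from cystathionine, stood at 6.85, 5.64 and 6.04 TPM in TMEM216+IGF1, against 16.3, 19.4 and 13.8 TPM in Ctrl+IGF1 (log2 -1.28, SE 0.13, adjusted p = 0.000348). Both groups of 3 were well apart. PCK2, the mitochondrial phosphoenolpyruvate carboxykinase, stood at 18.3, 18.3 and 18.5 TPM in TMEM216+IGF1, against 36.5, 41.2 and 38.6 TPM in Ctrl+IGF1 (log2 -1.03, SE 0.08), and it overlaps NRL on the opposite strand. GPT2, a mitochondrial alanine aminotransferase, averaged 16.3 ± 0.964 TPM in TMEM216+IGF1 and 28.3 ± 0.969 TPM in Ctrl+IGF1 (log2 -0.76, SE 0.08).

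The 3 enzymes of serine synthesis fell by less, and single libraries decided their calls. PHGDH, the first of these enzymes, had a log2 change of -0.32 (SE 0.06) and lost its call without TMEM216+IGF1 replicate 1 or 2, replicate 2 of TMEM216, Ctrl+IGF1 replicate 1 or any 1 Ctrl library (log2 -0.29 where nearest 0). PSAT1, the aminotransferase, had a log2 change of -0.37 (SE 0.07) and lost its call without TMEM216+IGF1 replicate 1 or 3 or Ctrl+IGF1 replicate 1 (log2 -0.35 where nearest 0). PSPH, the phosphatase, had a log2 change of -0.53 (SE 0.10) and lost its call without any 1 TMEM216+IGF1 library or Ctrl+IGF1 replicate 1 (log2 -0.51 where nearest 0). SHMT2 and MTHFD2, which take serine into mitochondrial one-carbon metabolism, had log2 changes of -0.24 and -0.36 and did not pass.

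Among 14 amino acid transporters, 3 fell and none rose, with a median of -0.129. The share of falls over all features was 0.696%. SLC3A2, the heavy chain that carries several transporters to the cell surface, averaged 410 ± 19.4 TPM in TMEM216+IGF1 and 580 ± 39.5 TPM in Ctrl+IGF1 (log2 -0.50, SE 0.07, adjusted p = 0.00365). SLC1A5, a glutamine transporter, had a log2 change of -0.49 (SE 0.10), and its call was lost without any 1 TMEM216+IGF1 library, Ctrl+IGF1 replicate 1 or 2 or any 1 Ctrl library (log2 -0.41 where nearest 0). SLC6A9, a glycine transporter, had a log2 change of -0.61 (SE 0.12), and its call was lost without any 1 TMEM216+IGF1 library, Ctrl+IGF1 replicate 1, TMEM216 replicate 2 or any 1 Ctrl library (log2 -0.56 where nearest 0). SLC7A11 and SLC7A5, light chains that pair with SLC3A2, had log2 changes of -0.26 and -0.21 and did not pass.

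Effectors of the ATF4 and stress response followed. Of 19 tested, 6 fell and none rose, with a median of -0.339. Over all features 0.696% fell and 0.918% rose. In 14 of 19 the TMEM216+IGF1 libraries lay wholly below the Ctrl+IGF1 libraries, against 7.69% of all features. CHAC1, which breaks down glutathione, stood at 5.62, 7.22 and 5.34 TPM in TMEM216+IGF1, against 29.8, 25 and 28.5 TPM in Ctrl+IGF1. It was the largest fall after FOS among genes with a symbol (log2 -2.03, SE 0.15, adjusted p = 2.46e-05). TRIB3, a pseudokinase that dampens AKT and ATF4 signalling, stood at 13.4, 12.9 and 13.7 TPM in TMEM216+IGF1, against 29.4, 27.3 and 28.5 TPM in Ctrl+IGF1 (log2 -1.04, SE 0.09). SESN2, a leucine sensor that restrains mTORC1, stood at 8.15, 8.05 and 7.35 TPM in TMEM216+IGF1, against 16.9, 16.8 and 16.3 TPM in Ctrl+IGF1 (log2 -1.0, SE 0.11). NUPR1, a small stress-induced nuclear protein, varied more between libraries, at 3.76, 8.40 and 4.49 TPM in TMEM216+IGF1, against 16.6, 15.3 and 22 TPM in Ctrl+IGF1 (log2 -1.58, SE 0.23, adjusted p = 0.0047).

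The remaining 2 falls of that list were sensitive to single libraries. DDIT3, the factor CHOP, had a log2 change of -0.61 (SE 0.12) and lost its call without any 1 TMEM216+IGF1 library, Ctrl+IGF1 replicate 1 or 3, TMEM216 replicate 2 or Ctrl replicate 3 (log2 -0.50 where nearest 0). PPP1R15A, the phosphatase subunit GADD34, had a log2 change of -0.52 (SE 0.09) and lost its call without TMEM216+IGF1 replicate 1 or 2 or Ctrl+IGF1 replicate 1 or 3 (log2 -0.45 where nearest 0). ADM2, a peptide hormone gene outside the list, stood at 1.36, 1.07 and 1.40 TPM in TMEM216+IGF1, against 5.85, 5.10 and 5.26 TPM in Ctrl+IGF1 (log2 -1.49, SE 0.12, adjusted p = 4.86e-05). ATF4 itself stood at 559, 563 and 620.0 TPM in TMEM216+IGF1, against 696, 646 and 815 TPM in Ctrl+IGF1. The libraries did not overlap, but the log2 change of -0.30 did not pass (adjusted p = 0.0973). Among 20 tested aminoacyl-tRNA synthetases none passed, with a median of -0.096.

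**Figure D3:**
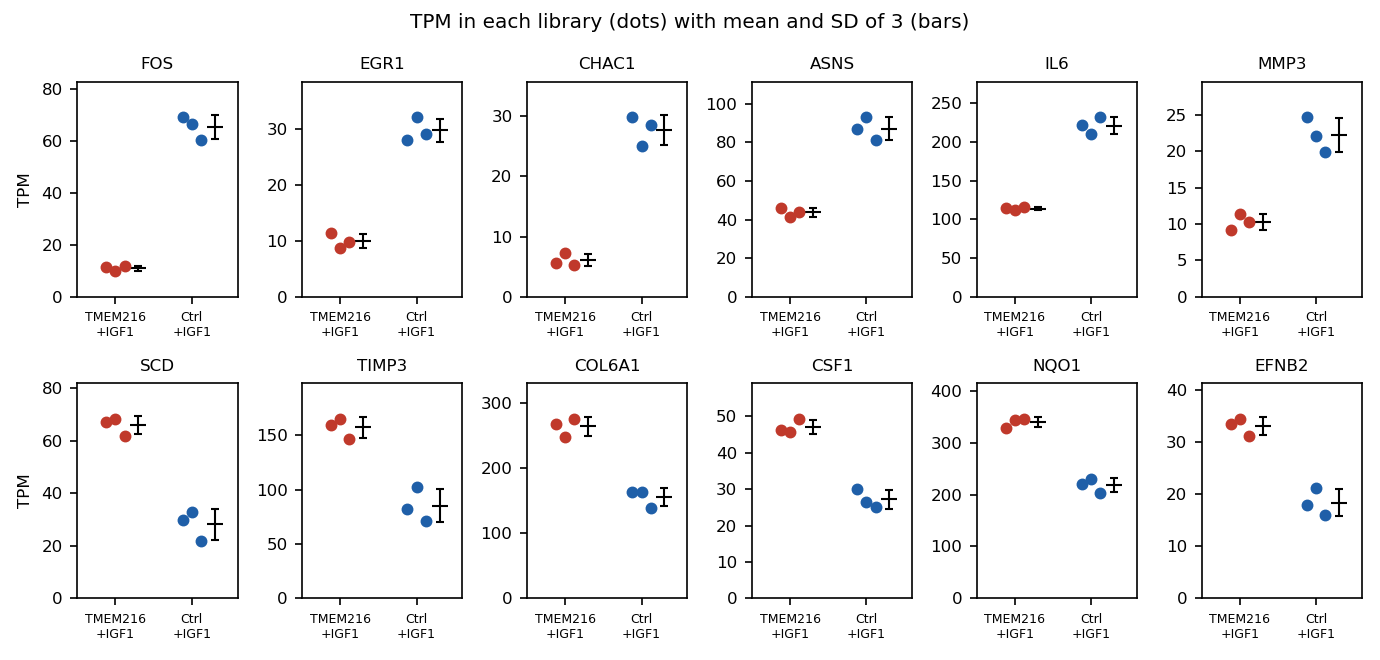
TPM (vertical axes, each from 0) of 12 genes in the 3 TMEM216+IGF1 libraries (red dots, left) and the 3 Ctrl+IGF1 libraries (blue dots, right), with mean and SD of 3 as bars. The upper 6 genes, from FOS at 10.0 to 11.7 against 60.5 to 69.2 TPM, are lower in TMEM216+IGF1, and the lower 6 are higher, with no overlap in any panel.

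Among inflammatory signals, 5 genes fell, 1 rose and most did not pass. Of 27 tested cytokine and NF-kB target genes, IL6, IL24, EDN1, CXCL1 and IL1A fell and CSF1 rose, with a list median of -0.125. The shares over all features were 0.696% for falls and 0.918% for rises. IL6, an inflammatory cytokine, stood at 115, 112 and 116 TPM in TMEM216+IGF1, against 222, 210.2 and 232 TPM in Ctrl+IGF1 (log2 -0.95, SE 0.06, adjusted p = 1.2e-05). It overlaps STEAP1B on the opposite strand. EDN1, the precursor of the vasoconstrictor endothelin 1, stood at 19.9, 20.1 and 20.3 TPM in TMEM216+IGF1, against 44.9, 47.3 and 44.5 TPM in Ctrl+IGF1 (log2 -1.14, SE 0.08, adjusted p = 1.44e-05). The libraries within each group were close together for both genes. IL24, an IL10 family cytokine, averaged 15.1 ± 3.23 TPM in TMEM216+IGF1 and 30.7 ± 1.51 TPM in Ctrl+IGF1 (log2 -1.0, SE 0.13). CXCL1, a neutrophil chemokine, averaged 170.0 ± 7.47 TPM in TMEM216+IGF1 and 234 ± 6.82 TPM in Ctrl+IGF1 (log2 -0.46, SE 0.07).

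CSF1, the growth factor of macrophages, went the other way. It stood at 46.3, 45.8 and 49.3 TPM in TMEM216+IGF1, against 30.0, 26.5 and 25 TPM in Ctrl+IGF1 (log2 0.78, SE 0.08, adjusted p = 0.000528). IL1A had a log2 change of -0.53 (SE 0.10) and lost its call without any 1 TMEM216+IGF1 library or Ctrl+IGF1 replicate 1 or 3 (log2 -0.49 where nearest 0). CXCL8, CXCL2 and LIF, also cytokines, had log2 changes of -0.07, -0.21 and 0.19 and did not pass. PTGES, which makes prostaglandin E2, averaged 416 ± 1.70 TPM in TMEM216+IGF1 and 298 ± 24.6 TPM in Ctrl+IGF1 and rose (log2 0.48, SE 0.07). IL13RA2, a decoy receptor of IL13, averaged 380 ± 10.1 TPM in TMEM216+IGF1 and 258 ± 18.0 TPM in Ctrl+IGF1 and rose (log2 0.56, SE 0.07). No gene passed among 31 interferon and MHC class I genes, whose median was -0.037.

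Of 8 tested MHC class II genes, which present antigen, 3 rose (against 0.918% of all features) and none fell. Their median log2 change was 0.331. Without Ctrl+IGF1 replicate 3 only 1 of these genes rose. HLA-DRA, the alpha chain of HLA-DR, stood at 53.5, 43.7 and 42.9 TPM in TMEM216+IGF1, against 26.0, 28.3 and 24.6 TPM in Ctrl+IGF1 (log2 0.80, SE 0.10, adjusted p = 0.00154). CD74, the invariant chain, had a log2 change of 0.47 (SE 0.09) and lost its call without any 1 TMEM216+IGF1 library or Ctrl+IGF1 replicate 1 or 3 (log2 0.44 where nearest 0). HLA-DRB1 had a log2 change of 0.71 (SE 0.15) and lost its call in every leave-one-out refit except that without TMEM216 replicate 1 (log2 0.59 where nearest 0). LAPTM5, a lysosomal protein known from blood cells, averaged 309 ± 4.17 TPM in TMEM216+IGF1 and 217 ± 15.4 TPM in Ctrl+IGF1 (log2 0.51, SE 0.06).

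Few matrix genes passed, and all chains that did were higher in TMEM216+IGF1. Of 34 tested genes in the list of collagens and laminins, which also holds TNC (tenascin C), 3 rose and none fell. The list median was 0.311, and 0.206 without Ctrl+IGF1 replicate 3. COL6A1, a collagen VI chain, stood at 268, 248 and 275 TPM in TMEM216+IGF1, against 164, 163 and 139 TPM in Ctrl+IGF1 (log2 0.76, SE 0.08, adjusted p = 0.000475). COL6A3, the long chain of the same collagen, stood at 6.25, 7.20 and 6.10 TPM in TMEM216+IGF1, against 3.22, 3.47 and 3.03 TPM in Ctrl+IGF1 (log2 0.83, SE 0.12). COL18A1, the source of endostatin, had a log2 change of 0.53 (SE 0.09) and lost its call without TMEM216+IGF1 replicate 1 or 3 (log2 0.47 where nearest 0) and with the length correction (log2 0.40, adjusted p = 0.0853). FN1, fibronectin, had a log2 change of 0.57 and did not pass (adjusted p = 0.169).

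Among 30 matrix proteases and their inhibitors, 4 rose and 2 fell, and without Ctrl+IGF1 replicate 3 the 4 rises became 2. MMP3, stromelysin 1, stood at 9.18, 11.4 and 10.2 TPM in TMEM216+IGF1, against 24.6, 22.1 and 19.9 TPM in Ctrl+IGF1, and fell (log2 -1.04, SE 0.12, adjusted p = 0.000828). TIMP3, a metalloproteinase inhibitor bound to the matrix, stood at 160.0, 165 and 147 TPM in TMEM216+IGF1, against 82.5, 102 and 71.6 TPM in Ctrl+IGF1, and rose (log2 0.89, SE 0.13, adjusted p = 0.00566). The protease and the inhibitor thus moved in opposite directions. SERPINB2, an inhibitor of plasminogen activators, fell (log2 -0.74, SE 0.12), a call lost without TMEM216+IGF1 replicate 1 (log2 -0.69). ADAM19, a membrane metalloprotease, rose (log2 0.73, SE 0.12), a call lost without TMEM216+IGF1 replicate 1 or 2 (log2 0.70 where nearest 0). TIMP2 and PLAUR also passed, at log2 0.38 and 0.35. TIMP2 lost its call without any 1 TMEM216+IGF1 library or Ctrl+IGF1 replicate 1 or 3, and PLAUR without these or Ctrl replicate 1 or 3 (log2 0.31 where nearest 0 for each).

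Of 26 integrin and focal adhesion genes, 25 had a higher fitted value, against 7838 of all 13071 features, with a median of 0.232, and 2 rose. ITGB4, the beta chain of the laminin receptor of hemidesmosomes, averaged 66.5 ± 4.58 TPM in TMEM216+IGF1 and 47.8 ± 2.63 TPM in Ctrl+IGF1 (log2 0.47, SE 0.07, adjusted p = 0.00759), and it overlaps GALK1 on the opposite strand. Its call was lost with the length correction (log2 0.35, adjusted p = 0.0515). ITGA2, the alpha chain of a collagen receptor, had a log2 change of 0.85 (SE 0.19). It kept its call only in the 3 refits without Ctrl+IGF1 replicate 2 or TMEM216 replicate 1 or 3, and its change was 0.66 without Ctrl+IGF1 replicate 3. The list median was 0.140 without that library, against a median over all features of -0.0056.

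Guidance ligands and receptors, which steer growing axons and vessels, gave 5 rises and no fall among 24 semaphorins, plexins and neuropilins. The list median was 0.105, and 0.918% of all features rose. SEMA6B, a membrane semaphorin, stood at 36.5, 36.4 and 35.6 TPM in TMEM216+IGF1, against 25.2, 26.2 and 25.9 TPM in Ctrl+IGF1 (log2 0.47, SE 0.07, adjusted p = 0.00651). PLXNA1, a semaphorin receptor, rose by log2 0.63 (SE 0.10) and lost its call without TMEM216+IGF1 replicate 1 (log2 0.62). NRP1, a coreceptor of semaphorins and VEGF, rose by log2 0.53 (SE 0.09) and lost its call without TMEM216+IGF1 replicate 1 or 2 or Ctrl+IGF1 replicate 1 (log2 0.51 where nearest 0). SEMA4B, at log2 0.50, lost its call without any 1 TMEM216+IGF1 library or Ctrl+IGF1 replicate 1 (log2 0.48 where nearest 0). SEMA3A, at log2 0.48, kept its call only in the refits without TMEM216 replicate 1 or Ctrl+IGF1 replicate 2 (log2 0.42 at the least), and lost it with the length correction (log2 0.33, adjusted p = 0.0975). EFNB2, a membrane ligand of Eph receptors, stood at 33.5, 34.4 and 31.1 TPM in TMEM216+IGF1, against 17.8, 21.2 and 16 TPM in Ctrl+IGF1 (log2 0.82, SE 0.12, adjusted p = 0.00566). It was the only one of 12 ephrins and Eph receptors to pass. CDH4, a cadherin first described in retina, averaged 39.5 ± 1.62 TPM in TMEM216+IGF1 and 25.1 ± 2.14 TPM in Ctrl+IGF1 (log2 0.64, SE 0.09).

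Fatty acid synthesis had 1 call. SCD, the desaturase that makes monounsaturated fatty acids, stood at 67.3, 68.3 and 61.9 TPM in TMEM216+IGF1, against 29.8, 32.8 and 21.7 TPM in Ctrl+IGF1. It had the largest rise after TMEM216 among genes with a mean of at least 5 TPM (log2 1.22, SE 0.14, adjusted p = 0.000828). Of the 22 tested genes of its list, 20 had a higher fitted value, against 7838 of all 13071 features, with a median of 0.25 that was 0.155 without Ctrl+IGF1 replicate 3. FASN and ACACA, which build palmitate, had log2 changes of 0.31 and 0.60 and did not pass (adjusted p = 0.176 and 0.118). In cholesterol synthesis, INSIG1 and IDI1 passed of 27, at log2 0.46 and 0.35. Each kept its call only without TMEM216 replicate 1 or 3 or Ctrl+IGF1 replicate 2 (log2 0.40 and 0.31 at the least), and no gene of the list passed without Ctrl+IGF1 replicate 3. ACOX2, a peroxisomal oxidase, averaged 34.0 ± 1.16 TPM in TMEM216+IGF1 and 22.1 ± 0.307 TPM in Ctrl+IGF1 (log2 0.60, SE 0.09). LPCAT1, a lysophospholipid acyltransferase, averaged 114 ± 2.02 TPM in TMEM216+IGF1 and 78.6 ± 8.31 TPM in Ctrl+IGF1 (log2 0.53, SE 0.08).

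Of 26 targets of NRF2, the factor that answers oxidative stress, 3 rose and none fell, with a median of 0.200. The share of rises over all features was 0.918%. NQO1, a quinone reductase, stood at 328, 344 and 346 TPM in TMEM216+IGF1, against 220.2, 231 and 204 TPM in Ctrl+IGF1 (log2 0.64, SE 0.06, adjusted p = 0.000314). AKR1C3, an aldo-keto reductase of steroids and prostaglandins, stood at 73.5, 78.4 and 72.5 TPM in TMEM216+IGF1, against 45.7, 47.8 and 40.1 TPM in Ctrl+IGF1 (log2 0.74, SE 0.08, adjusted p = 0.000528). HMOX1, heme oxygenase 1 and also an NRF2 target, had a log2 change of -0.23 and did not pass. NFE2L2, the NRF2 transcript, had a log2 change of -0.04 and did not pass. ALDH3A1, an aldehyde dehydrogenase outside the list, averaged 6.88 ± 1.01 TPM in TMEM216+IGF1 and 2.81 ± 0.258 TPM in Ctrl+IGF1 (log2 1.04, SE 0.17). DHRS3, which returns retinal to retinol, averaged 7.97 ± 0.377 TPM in TMEM216+IGF1 and 3.83 ± 0.498 TPM in Ctrl+IGF1 (log2 0.90, SE 0.15).

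Of 27 tested chaperone and stress genes of the endoplasmic reticulum, 2 rose and 2 fell. By fitted value 23 of them were higher, against 7838 of all 13071 features. The list median was 0.22, and 0.165 without Ctrl+IGF1 replicate 3. HSP90B1, the chaperone GRP94, stood at 840, 915 and 870.0 TPM in TMEM216+IGF1, against 620.0, 632 and 546 TPM in Ctrl+IGF1, and rose (log2 0.55, SE 0.07, adjusted p = 0.00164). It overlaps UQCC6 on the opposite strand. CALR, calreticulin, rose by log2 0.33 (SE 0.07), and kept its call only without TMEM216 replicate 1 or 3 or Ctrl+IGF1 replicate 2 (log2 0.27 at the least). The stress genes HERPUD1 and XBP1 of the same list of 27 fell, at log2 -0.60 and -0.41. HERPUD1 lost its call without any 1 TMEM216+IGF1 library or Ctrl+IGF1 replicate 1 or 3 (log2 -0.52 where nearest 0). XBP1 kept its call only without TMEM216 replicate 1 or 3 or Ctrl+IGF1 replicate 3 (log2 -0.35 where nearest 0).

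Keratin genes fell in part. Of 21 keratins and epithelial genes, 4 fell and none rose, with a median of -0.075. Among all features, 0.696% fell. KRT17, a basal keratin, was low throughout, at 0.154, 0.386 and 0.584 TPM in TMEM216+IGF1, against 1.86, 2.84 and 1.87 TPM in Ctrl+IGF1 (log2 -1.21, SE 0.18). KRTAP2-3, a keratin-associated protein gene, averaged 20.2 ± 1.62 TPM in TMEM216+IGF1 and 47.2 ± 7.96 TPM in Ctrl+IGF1 (log2 -1.18, SE 0.19). Its near copy KRTAP2-4 had a log2 change of -1.02 (SE 0.16), and reads of the pair may have been shared out between them. KRT8 and KRT19, simple epithelial keratins, passed at log2 -0.30 and -0.39. KRT8 kept its call only without TMEM216 replicate 1 or 3 or Ctrl+IGF1 replicate 2 or 3 (log2 -0.29 where nearest 0), and KRT19 only without replicate 1 or 3 of TMEM216 (log2 -0.36 where nearest 0).

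Genes linked to lung metastasis of this parent line were higher in 15 of 19 by fitted value, against 7838 of all 13071 features, with a median of 0.34 that was 0.265 without Ctrl+IGF1 replicate 3. By the test 2 rose, IL13RA2 and ID1, and 1 fell, CXCL1. ID1, an inhibitor of helix-loop-helix factors, averaged 508 ± 30.4 TPM in TMEM216+IGF1 and 371 ± 35.5 TPM in Ctrl+IGF1 (log2 0.45, SE 0.10). It kept its call only without TMEM216 replicate 1 or 3 or Ctrl+IGF1 replicate 3 (log2 0.39 at the least). TNC, tenascin C of the matrix, had 51.6, 57.5 and 54.8 TPM in TMEM216+IGF1, against 35.8, 46.4 and 29.6 TPM in Ctrl+IGF1, a log2 change of 0.56 that did not pass (adjusted p = 0.0598). LTBP1, which tethers latent TGF-beta to the matrix, had a log2 change of 0.72 and FSCN1, an actin bundler, one of 0.29, and neither passed (adjusted p = 0.0609 and 0.0519). MMP1, a collagenase, had a log2 change of -0.24 and did not pass. Of this list 5 genes rose without Ctrl+IGF1 replicate 3 and 8 with the length correction.

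Of 27 tested genes in the list of the IGF axis and PI3K, 1 passed. IGFBP4, a secreted protein that binds IGF1, stood at 1062, 1071 and 1083 TPM in TMEM216+IGF1, against 858, 827 and 873 TPM in Ctrl+IGF1 (log2 0.33, SE 0.05, adjusted p = 0.00775). The receptor IGF1R and the substrates IRS1 and IRS2 had log2 changes of 0.29, 0.04 and -0.08 and did not pass. The list median was 0.183, and 0.053 without Ctrl+IGF1 replicate 3. Outside that list PAPPA rose (log2 0.80, SE 0.16). PAPPA kept its call only without TMEM216 replicate 1 or 3 or Ctrl+IGF1 replicate 2 (log2 0.63 at the least). Of 22 ciliary transition zone genes only TMEM216 passed, and of 9 Hedgehog pathway genes, whose signal passes through the cilium, none did. None of 31 G2/M genes and 1 of 34 G1/S genes passed. That 1 was GINS2, a replication factor, at log2 0.48, lost without any 1 TMEM216+IGF1 library or Ctrl+IGF1 replicate 1 (log2 0.47 where nearest 0).

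Further genes whose calls held in all 12 refits lay outside these groups. CA12, a membrane carbonic anhydrase, averaged 19.8 ± 0.620 TPM in TMEM216+IGF1 and 10.5 ± 2.09 TPM in Ctrl+IGF1 (log2 0.87, SE 0.14). GPRC5C, an orphan receptor induced by retinoic acid, averaged 13.0 ± 1.93 TPM in TMEM216+IGF1 and 6.08 ± 0.881 TPM in Ctrl+IGF1 (log2 0.98, SE 0.13). Among the falls, ANKRD1, a known YAP target, averaged 302 ± 3.63 TPM in TMEM216+IGF1 and 446 ± 23.7 TPM in Ctrl+IGF1 (log2 -0.56, SE 0.06). The YAP targets CCN1 and CCN2 had log2 changes of -0.28 and 0.10 and did not pass. EEF1A2, a translation elongation factor of nerve and muscle, averaged 11.2 ± 0.933 TPM in TMEM216+IGF1 and 21.8 ± 1.36 TPM in Ctrl+IGF1 (log2 -0.90, SE 0.11).

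**Figure D4:**
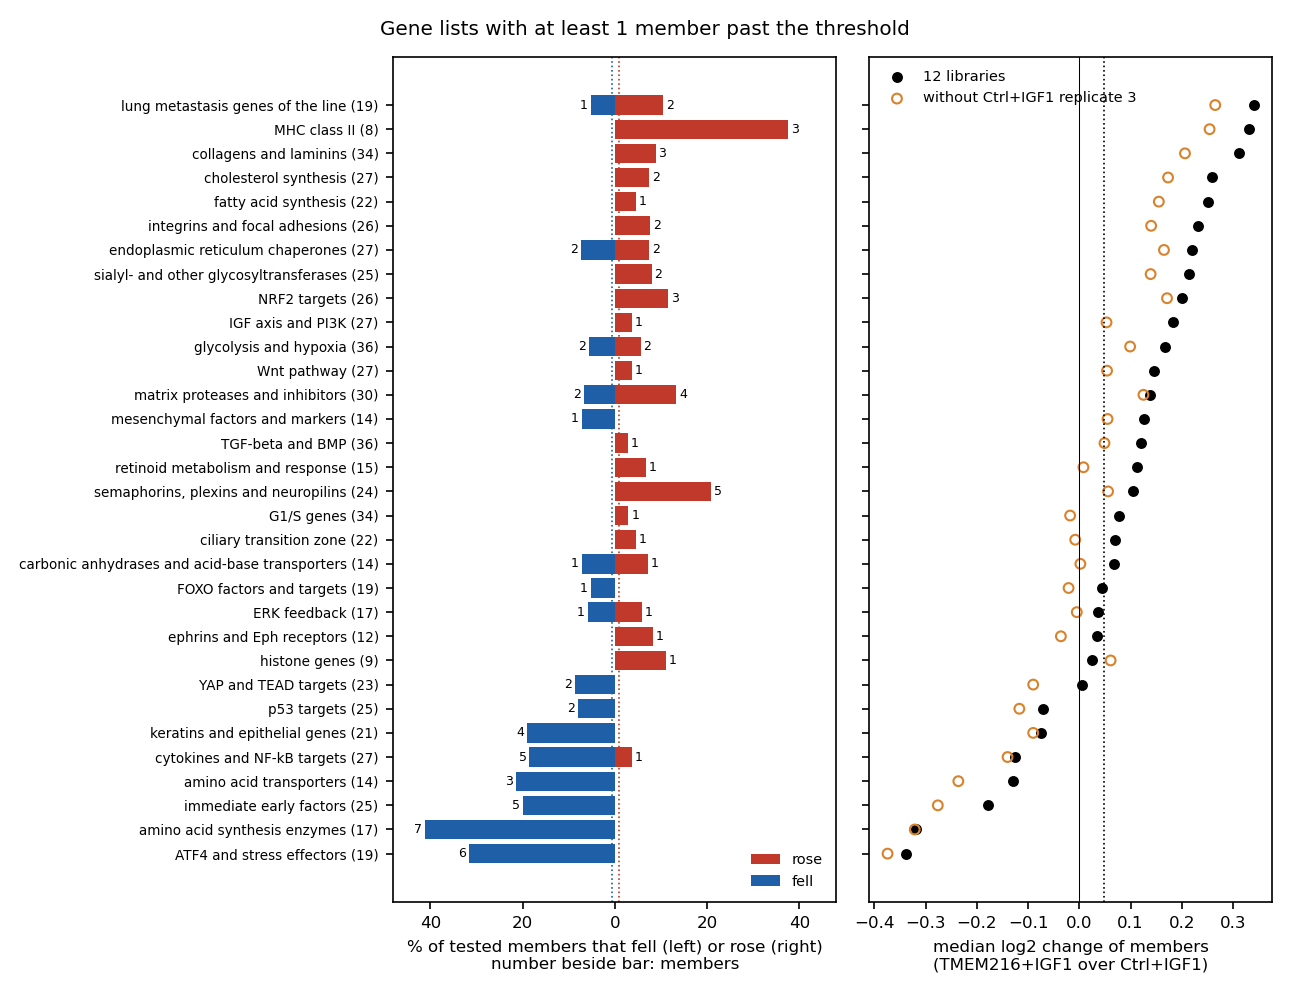
Left, percent of tested members of each gene list that rose (red, to the right) or fell (blue, to the left), with the number of members beside each bar and the share over all features as dotted lines at 0.918 and 0.696; right, the median log2 change of each list with all libraries (black) and without Ctrl+IGF1 replicate 3 (open). Amino acid synthesis enzymes have the largest share of falls, 7 of 17, and the MHC class II genes the largest share of rises, 3 of 8.

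The same contrast without IGF1 gave 20 rises and 123 falls, 0.153% and 0.941% of the features and 1.09% in either direction. It uses other libraries but shares the estimate of spread. Of the 120 rises with IGF1, 13 also rose without it, which is 10.8% of the rises with IGF1 and 65.0% of those without. Of the 91 falls, 48 also fell without IGF1, 52.7% of the falls with IGF1 and 39.0% of those without. No feature passed in opposite directions. The rises had a median log2 change of 0.271 without IGF1, and 117 of 120 had a higher fitted value. The falls had a median of -0.547, and 89 of 91 had a lower one. The median without IGF1 over all features was -0.048.

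**Figure D5:**
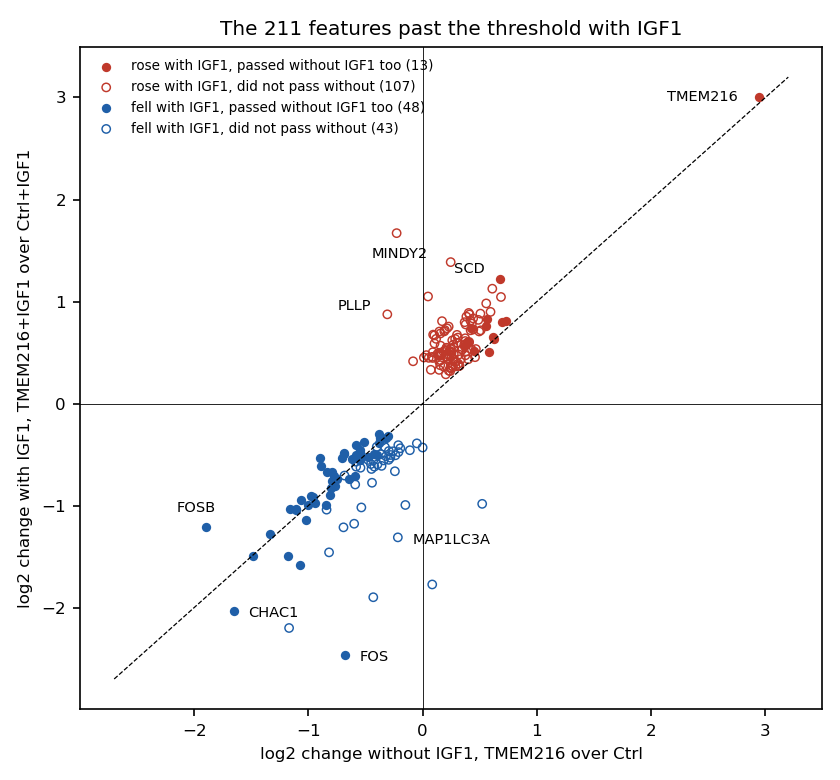
Log2 change with IGF1, TMEM216+IGF1 over Ctrl+IGF1 (vertical axis), against the change without IGF1, TMEM216 over Ctrl (horizontal axis), for the 211 features past the threshold with IGF1; filled where the change without IGF1 also passed, and the dashed line marks equal changes. FOS lies far below the line, at -2.47 with IGF1 and -0.68 without.

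Whether the effect with IGF1 differed from that without was tested gene by gene as the difference of the 2 changes. Of 13071 features, 2 went past the threshold (0.0153%). The test had an unadjusted p under 0.05 in 703 (5.38%), 51 of them among the 120 rises and 15 among the 91 falls. The rises and falls were selected on the change with IGF1, which is itself part of this difference. Small p-values among them are thus partly built in and cannot be set against the 5.38%. Of the 2 features past the threshold, only FOS had a change with IGF1 to compare. The other, ENSG00000273049, was listed at 0 in all libraries but the 3 of Ctrl without IGF1 and entered the fit only through them, so its value is no measure of a difference between the 2 effects. FOS stood at 76.4, 59.6 and 56.7 TPM in TMEM216 and at 108, 101 and 99.7 TPM in Ctrl without IGF1, a log2 change of -0.68. In both populations every library with IGF1 thus had less FOS than every library without it. The response to IGF1 itself was not tested here. The difference for FOS between -2.47 with IGF1 and -0.68 without was -1.79 (SE 0.15, adjusted p = 0.000965, limma), so the gap was wider with IGF1. EGR1 and FOSB, which fell in both settings, had differences of -0.31 (SE 0.18) and 0.69 (SE 0.23) that did not pass. The changes with and without IGF1 were -0.95 and -1.06 for IL6, -0.98 and -0.94 for ASNS, 0.64 and 0.62 for NQO1 and 0.76 and 0.56 for COL6A1, and none of these differences passed. PLLP, a myelin and epithelial membrane protein, averaged 6.99 ± 0.731 TPM in TMEM216+IGF1 and 3.40 ± 0.919 TPM in Ctrl+IGF1. It rose with IGF1 (log2 0.87), a call lost without TMEM216+IGF1 replicate 1 (log2 0.84), and its change without IGF1 was -0.31. That difference, 1.18 (SE 0.20), did not pass (adjusted p = 0.217). MAP1LC3A, an autophagosome protein, had log2 changes of -1.31 with IGF1 and -0.22 without, and the difference of -1.09 (SE 0.22) did not pass either (adjusted p = 0.673).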

How the data were processed

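The authors deposited TPM for 21574 features in 12 libraries (20443 with Ensembl identifiers, 1131 assembled MSTRG features); HISAT2, StringTie and RSEM were used, per the submitters' processing notes, without versions. Per the labels' protocols, the libraries came from total RNA by Illumina's TruSeq RNA preparation; strand and genome build: not given in the sources used here. TPM keeps no depth, so no counting interval is given, and a value listed at 0 may be a failed estimate.

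From the deposited TPM, log2(TPM + 1) was fitted with limma 3.58.1 (R 4.3.3) to 4 group means with a mean-variance trend, for features that reached 1 TPM in 3 or more of the 12 libraries; tests were two-sided. The fit was tested on simulated data over 13071 features for TMEM216+IGF1 against Ctrl+IGF1. It recovered 100.0% of log2 changes of 2 or -2, 90.9% and 82.4% of changes of 1 and -1, and 39.4% of changes of 0.5 or -0.5, with 11 false calls. The 40 gene lists and the genes described were chosen with earlier results of these data known, and no list was tested as a set. Genes described are the 25 largest rises and falls with a mean of at least 5 TPM, up to 4 members of each list by p, the smallest p of the difference, and 6 genes always included. Others were picked after their values were seen, and 2 genes are not reported here. Transcript lengths and overlaps came from GENCODE 29, found for 95.5% of features. Promoter windows came from RefSeq on GRCh38.p14. Figures used matplotlib 3.10.9. The alternatives were the pseudocount, filters, scalings, trend, libraries fitted, a replicate block, each library left out and, chosen after seeing the data, a length correction.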

Additional observations from a re-analysis of the deposited data

Results flagged for a closer look

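The effect of TMEM216 with IGF1 differed from that without IGF1 in FOS by the test of the difference itself (limma, adjusted over 13071 features). For FOS the difference of the log2 changes was -1.785 (SE 0.155, adjusted p = 0.000965), and it passed in all 20 alternatives that give this test. ENSG00000273049, a gene the files give no symbol for, also went past the threshold, at 1.893 (SE 0.251, adjusted p = 0.0445). That gene was listed at 0 in every library except the 3 of Ctrl without IGF1, so it has no change with IGF1 to compare, it entered the fit only through those 3 libraries, and its value is no measure of a difference between the effects. Its call held in 4 of the 20 alternatives. With 1 library left out it held only in the fit without Ctrl replicate 1.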

How the results depend on the processing

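The number of features that passed (211) was 49 with only the 6 libraries compared, 140 with the replicate block and 394 with the length correction, and 84 to 462 with 1 library left out. Features that rose (120) numbered 24, 77 and 207 in the same fits and 43 to 308 with 1 library left out. Features that fell (91) numbered 25 with only the 6 libraries, 63 with the block, 187 with the length correction, 138 after quantile normalization and 39 to 154 with 1 library left out. Of the 842 list members, 81 passed in the full fit, 32 with only the 6 libraries, 122 with the length correction and 41 to 117 with 1 library left out. The difference between the effects with and without IGF1 passed in 1 feature under median-of-ratios scaling, quantile normalization, the replicate block, a pseudocount of 0.1 or a minimum of 5 TPM, and in 1 to 3 with 1 library left out. FOS passed that test in all 20 alternatives that could give it, with values from -1.894 to -1.656. The change of TMEM216 kept its call in all 21 alternatives.

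Among 180 named genes, 3306 of 3766 values kept their direction and side of the threshold, 342 no longer passed, 107 came to pass and 11 changed sign, none of them in a gene that passed. The IRS1 log2 change was -0.01906 after quantile normalization, -0.0137 after median-of-ratios scaling, -0.01048 without TMEM216+IGF1 replicate 1, -0.0907 without Ctrl+IGF1 replicate 3 and -0.121 with the length correction, and it ranged from -0.09073 to 0.1601 with 1 library left out. NFE2L2 was 0.0317 without TMEM216+IGF1 replicate 1 and 0.133 without Ctrl+IGF1 replicate 2, with a range from -0.2037 over the libraries left out. IRS2 was 0.0249 without Ctrl+IGF1 replicate 2, with a range from -0.1722. The CSF3 log2 change was -0.003264 after median-of-ratios scaling, H2BC5 0.0284 with the length correction and TOMM40 0.00775 without Ctrl+IGF1 replicate 3, with a range from -0.08915. The causes were not tested.

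The main fit did not pair libraries by replicate number. The correlations of same-numbered deviations between TMEM216+IGF1 and Ctrl+IGF1 were 0.011, 0.165 and 0.125. Those of unlike-numbered libraries of these groups ran from -0.188 to 0.0617. Between TMEM216 and TMEM216+IGF1 the same-numbered correlations were 0.0212, 0.00206 and -0.286. These values do not settle whether the numbers mark a pairing. The fit of only 6 libraries has fewer residual degrees of freedom. Depth is unknown, which limits what can be said of genes at low TPM.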

Other observations

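Several more genes kept their calls in all 12 leave-one-out refits and belong to none of the groups above. Among membrane and secreted proteins that rose, SLCO3A1, an organic anion transporter, averaged 10.6 ± 0.803 TPM in TMEM216+IGF1 and 5.61 ± 0.0489 TPM in Ctrl+IGF1 (log2 0.81, SE 0.09). SLCO4A1, of the same family, averaged 186 ± 6.5 TPM in TMEM216+IGF1 and 125 ± 14.1 TPM in Ctrl+IGF1 (log2 0.58, SE 0.08). FAM20C, the kinase of secreted phosphoproteins, averaged 139 ± 2.47 TPM in TMEM216+IGF1 and 92.2 ± 10.9 TPM in Ctrl+IGF1 (log2 0.59, SE 0.09). The gel-forming mucin MUC5AC and the clotting factor chain F13A1 rose at low levels, to 2.96 and 4.00 TPM in TMEM216+IGF1, against 1.15 and 1.30 TPM in Ctrl+IGF1. Among the falls, HOXB9, a homeobox factor that overlaps HOXB7 on the same strand, averaged 11.1 ± 0.236 TPM in TMEM216+IGF1 and 18.8 ± 0.492 TPM in Ctrl+IGF1 (log2 -0.71, SE 0.08). TSC22D3, the glucocorticoid-induced leucine zipper protein, averaged 8.82 ± 0.204 TPM in TMEM216+IGF1 and 14.7 ± 0.865 TPM in Ctrl+IGF1 (log2 -0.67, SE 0.09).

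Of tested genes that are next to each other on a chromosome, 9 pairs passed together, 8 in the same direction. The share over all neighbouring pairs was not computed, so these counts have no background. The pairs include the near copies KRTAP2-3 and KRTAP2-4, and KRT17 with both KRT19 and EIF1. They also include ALDH3A2 and ALDH3A1 (log2 0.72 and 1.04), PTPRU and LAPTM5 (0.67 and 0.51) and TRIB3 and RBCK1 (-1.04 and -0.545). SERINC2 and TINAGL1 went opposite ways (-0.67 and 0.45), and the call of TINAGL1 was lost with the length correction (log2 0.36, adjusted p = 0.0564). Of the assembled MSTRG features, 7 passed. MSTRG.13414.13 and MSTRG.13414.14, whose names differ in the last field, went opposite ways at log2 -0.98 and 1.67. The levels in TMEM216+IGF1 were 1.49, 0.994 and 1.48 TPM for the first and 7.40, 6.75 and 5.75 TPM for the second. In Ctrl+IGF1 they were 3.95, 3.30 and 3.48 TPM for the first and 1.03, 1.00 and 2.35 TPM for the second. The call of MSTRG.13414.13 was lost without Ctrl+IGF1 replicate 1 (log2 -0.93). Calls were also lost for ALDH3A2 without any 1 TMEM216+IGF1 library (log2 0.68 where nearest 0), for PTPRU without TMEM216+IGF1 replicate 1 or 3 (0.63), for SERINC2 without TMEM216+IGF1 replicate 2 (-0.64) and for RBCK1 without TMEM216+IGF1 replicate 1 or 2 or Ctrl+IGF1 replicate 1 or 3 (-0.47).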
